A study of Danio rerio with 8 samples.

Results

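The genes described here are regulators of the unfolded protein response and the integrated stress response, together with genes that the transcription factor Atf4 switches on. They were chosen by symbol: atf4a, atf4b, atf3, ddit3, xbp1, atf6, trib3, chac1 and asns. Of these 9 symbols, 8 matched a row of the count table, which lists 32434 genes, with 1 Ensembl ID each. atf4a is not analysed here. The 8 genes had between 375 and 39214 counts in each library, all passed the filter on low counts, and none shared its 8 values with another gene, so counting error was small beside the spread between libraries.

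Polyadenylated RNA was sequenced from whole zebrafish (Danio rerio) larvae at 5 days post fertilization. There were 4 libraries from seph mutants and 4 from WT larvae. seph, now called selenoh, encodes selenoprotein H, a nuclear protein that contains selenium. The sources used here do not give the allele, how many larvae went into a library, whether the WT larvae shared parents with the mutants, or whether libraries of 1 group were made from different clutches, and p-values therefore reflect the spread between these libraries alone, which may be technical. The title of the series names redox control and p53 as its subject.

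As background, unfolded proteins in the endoplasmic reticulum (ER) activate a set of membrane sensors. Ire1 splices the mRNA of xbp1 into a form that encodes an active transcription factor, Atf6 is released from the membrane by proteolysis, and Perk phosphorylates the translation factor eIF2, as do other kinases that sense amino acid shortage, haem shortage or viral RNA. Phosphorylated eIF2 lowers protein synthesis but favours translation of Atf4, which induces genes of amino acid supply and redox defence, and the factors Chop (encoded by ddit3) and Atf3. In mammals, much of this control acts on splicing, proteolysis and translation, which counts per gene do not record.

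Library totals ran from 53153770 to 55273388 counts in seph mutants and from 51246749 to 56409917 in WT. selenoh itself had 0 to 20 counts in mutant libraries and 737 to 1225 in WT libraries, so every library matched its label (mutant level 0.543% of WT; two-sided exact permutation test, p = 0.0286, which is the minimum for 4 against 4 libraries). Mutant replicate 2 held most of the mutant counts, and without it the mutant level was 0.0348% of WT. Another Ensembl ID had the same 8 counts as selenoh, so the reads of that pair cannot be separated. Both replicate 3 libraries stood apart from the rest: on the second principal component (20.5% of the variance) mutant replicate 3 was at -59.6 and WT replicate 3 at -71.0, while the other 6 lay between 15.7 and 27.4. Results that rest on these libraries are given with and without them. Markers of organs expected in a whole larva were detected in every library. Levels are given as CPM, the counts of a gene scaled to a fixed library size after TMM normalization, and their sums were 36138 to 43271 CPM in mutants and 29634 to 37685 CPM in WT for fast muscle. The sums were 4118 to 6067 CPM in mutants and 4078 to 5123 CPM in WT for hepatocytes, and 1336 to 1540 CPM in mutants and 1563 to 1672 CPM in WT for neurons.

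Among the 8 genes, atf3 was the only one called different between seph mutants and WT, and it was higher. A gene is called here when its Benjamini-Hochberg adjusted p in the edgeR quasi-likelihood test, fitted and adjusted over all 27050 genes tested, was under 0.05. Across all genes 8.65% were called higher and 8.45% lower in mutants, 17.1% in all, so 1 call among 8 genes is a share near that background. With scaling by library size alone, 62.2% of the calls over all genes were higher, against 50.6% with TMM scaling. By the edgeR test 0 of the 8 genes were lower, and 0 were lower at an unadjusted p under 0.05. The DESeq2 Wald test also gave 0 lower, while limma-voom with quality weights gave 1, chac1. Groups did not overlap for 1 of the 8 genes, atf3, where 11% of all genes had every mutant library above every WT library and 11.1% had every one below.

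**Figure D1:**
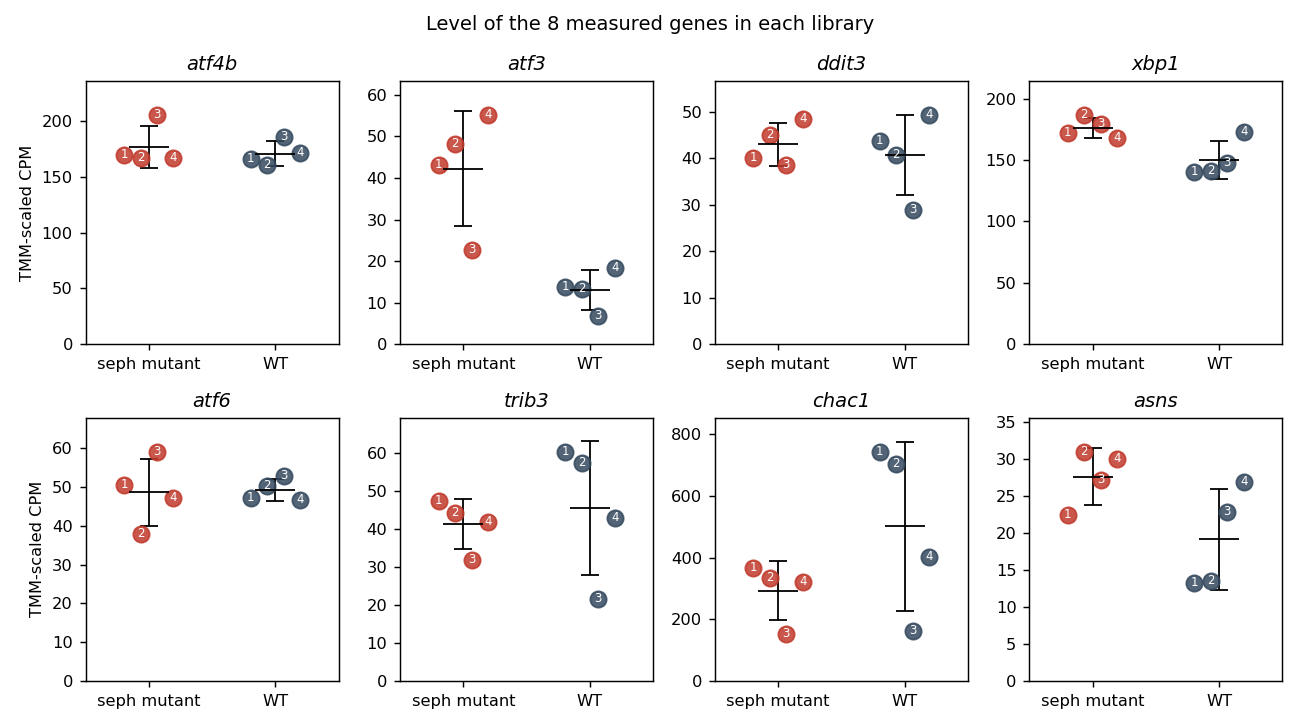
TMM-scaled CPM (vertical axes, each starting at 0) of the 8 measured genes in 4 seph mutant and 4 WT libraries. Points are libraries numbered by replicate, and bars are the mean ± SD. The groups are separate for atf3 (22.8 to 55.1 CPM in mutants, 6.80 to 18.4 CPM in WT) and overlap in the other 7 panels, with replicate 3 lowest in both groups for atf3, ddit3, trib3 and chac1.

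atf3 (ENSDARG00000007823) encodes a stress-induced transcription factor of the bZIP family, induced downstream of Atf4 and by other stress pathways, that pairs with other bZIP proteins and often represses its targets. It stood at 43.0, 48.1, 22.8 and 55.1 CPM in mutant replicates 1 to 4, and at 13.8, 13.4, 6.80 and 18.4 CPM in WT replicates 1 to 4. Every mutant library lay above every WT library, and replicate 3 was the lowest library of each group. The mean was 42.3 ± 13.9 CPM in mutants and 13.1 ± 4.79 CPM in WT (SD, n = 4 each). atf3 was 3.23-fold higher in mutants, a log2 fold change of 1.69 ± 0.33 (SE; 95% interval 0.95 to 2.43; edgeR adjusted p = 0.00876).

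The increase in atf3 was of similar size with and without the libraries that stood apart. Between the replicate 3 libraries, the log2 ratio of mutant to WT was 1.74, and between the means of the other libraries it was 1.68. The fit without both replicate 3 libraries gave 1.68 (edgeR adjusted p = 0.000355), and its adjusted p over all 19 alternatives ran from 5.77e-06 to 0.0318. With 1 library left out the log2 fold change ran from 1.48 to 1.90, and the call was kept each time. Set against the reads of the other stress genes in the same library, which removes any scaling between libraries, atf3 had 59.0 to 113.5 reads per 100 reads of ddit3 in mutants and 23.5 to 37.4 in WT. Such ratios did not overlap between the groups for 5 of the 7 other genes, though for atf4b they were only just apart (11.1 to 33.1 in mutants, 3.66 to 10.8 in WT). The ratios overlapped for atf6 (38.5 to 126.9 in mutants, 12.9 to 39.6 in WT) and for asns (83.9 to 192.2 in mutants, 29.8 to 103.7 in WT). The levels of atf3 alone already separated the groups, and the share of all genes with separate ratios was not counted. These ratios were computed because atf3 had changed, so they describe the difference and carry no test.

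The other transcription factors of the integrated stress response did not pass the test. atf4b (ENSDARG00000038141) is a zebrafish copy of Atf4, the factor whose translation rises when eIF2 is phosphorylated. Its level was 169, 167, 205 and 166 CPM in mutant replicates 1 to 4, against 166, 161, 186 and 171 CPM in WT replicates 1 to 4. Replicate 3 was the highest library of each group, and the other mutant libraries lay within the range of WT. The means were 177 ± 18.8 CPM in mutants and 171 ± 10.9 CPM in WT (SD, n = 4 each). The log2 fold change was 0.05 ± 0.10 (SE; 95% interval -0.19 to 0.29; edgeR adjusted p = 0.784), and without mutant replicate 3 it was -0.029.

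ddit3 (ENSDARG00000059836), which encodes Chop, a factor that promotes cell death under lasting stress, had 40.1, 45.0, 38.5 and 48.5 CPM in mutant replicates 1 to 4. WT replicates 1 to 4 had 43.7, 40.8, 28.9 and 49.3 CPM. All 4 mutant values fell inside the WT range, and replicate 3 was again the lowest library in both groups. The means were 43.0 ± 4.58 CPM in mutants and 40.7 ± 8.59 CPM in WT (SD, n = 4 each), a log2 fold change of 0.08 ± 0.16 (SE; 95% interval -0.28 to 0.44; edgeR adjusted p = 0.767). ddit3 was called in none of the 19 alternatives (adjusted p = 0.484 to 0.992).

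xbp1 and atf6 encode the transcription factors of the ER-specific arms. xbp1 (ENSDARG00000035622) had 172, 186, 179 and 168 CPM in mutant replicates 1 to 4 and 139.9, 141, 147 and 173 CPM in WT replicates 1 to 4. WT replicate 4 was the exception in its group, with a level above mutant replicates 1 and 4. The means were 176 ± 8.22 CPM in mutants and 150.3 ± 15.4 CPM in WT (SD, n = 4 each), and the log2 fold change was 0.23 ± 0.10 (SE; 95% interval 0.0050 to 0.46). That difference had an unadjusted p of 0.046 and an edgeR adjusted p of 0.148, so it was not called. limma-voom with quality weights called it higher (0.28, adjusted p = 0.0284, lowest to highest 0.0284 to 0.338 over its alternatives). Over all genes limma-voom made more calls than the main fit.

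atf6 (ENSDARG00000012656) had 50.5, 37.9, 59.06 and 47.2 CPM in mutant replicates 1 to 4, around the 47.3, 50.3, 52.9 and 46.6 CPM of WT replicates 1 to 4. The mutant libraries spread more widely than WT, with replicate 2 the lowest and replicate 3 the highest of all 8. The means were 48.7 ± 8.74 CPM in mutants and 49.3 ± 2.88 CPM in WT (SD, n = 4 each). The log2 fold change was -0.018 ± 0.13 (SE; 95% interval -0.31 to 0.28; edgeR adjusted p = 0.942), and its sign turned with scaling by library size alone (0.058), without mutant replicate 2 (0.084) and without WT replicate 3 (0.016). For these genes the table gives the level of the transcript, not the splicing of xbp1 or the cleavage of Atf6.

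Besides atf3 and ddit3, described above, the members hold 3 further Atf4 targets, asns, chac1 and trib3, and none of these 3 passed the test. asns (ENSDARG00000016375), which encodes asparagine synthetase, had 22.4, 30.9, 27.1 and 30.0 CPM in mutant replicates 1 to 4, against 13.3, 13.4, 22.9 and 26.9 CPM in WT replicates 1 to 4. WT replicates 1 and 2 lay well below all other libraries, whereas WT replicates 3 and 4 lay within the range of the mutants. The means were 27.6 ± 3.84 CPM in mutants and 19.1 ± 6.87 CPM in WT (SD, n = 4 each). The log2 fold change of 0.53 ± 0.24 (SE; 95% interval -0.0034 to 1.06) did not pass the test (edgeR adjusted p = 0.159). limma-voom with quality weights called asns higher (0.86, adjusted p = 0.0101, lowest to highest 0.0101 to 0.346 over its alternatives). As for xbp1, limma-voom made more calls over all genes than the main fit. A fit with a term for the replicate number, given in the closing section, also called asns higher. That fit too made more calls over all genes.

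chac1 (ENSDARG00000070426) encodes an enzyme that breaks down glutathione, and in mammals it is induced through Atf4, Atf3 and Chop. Its level was 366, 334, 153 and 319.8 CPM in mutant replicates 1 to 4. WT replicates 1 to 4 had 743, 703, 161 and 402 CPM. Replicate 3 was low in both groups, at 44.9% of the mean of the other 3 mutant libraries and 26.1% of the mean of the other 3 WT libraries. The remaining mutant libraries lay below the remaining WT libraries.

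With all 8 libraries chac1 averaged 293 ± 95.6 CPM in mutants and 502 ± 274 CPM in WT (SD, n = 4 each), and the difference was not called (log2 fold change -0.78 ± 0.44, SE; 95% interval -1.77 to 0.22; edgeR adjusted p = 0.266). Without WT replicate 3 chac1 was lower in mutants by the same test (log2 fold change -1.07, edgeR adjusted p = 0.0344). That fit drops the lowest WT library for chac1 and keeps the low mutant replicate 3, so it could only make the difference larger. It also called more genes of the lists described below. It was also lower without both replicate 3 libraries, where the means were 340 ± 23.7 CPM in mutants and 616 ± 186 CPM in WT (SD, n = 3 each; log2 fold change -0.86, edgeR adjusted p = 0.0205). limma-voom with quality weights called it lower too (-0.99, adjusted p = 0.0311). Over all its alternatives the adjusted p ran from 0.0205 to 0.527 and the log2 fold change from -1.07 to -0.53, so the sign was negative in each. Between the replicate 3 libraries alone the log2 ratio of mutant to WT was -0.076. The fit with a term for the replicate number, given in the closing section, called chac1 lower as well. Over all genes, that fit, limma-voom and the fit without both replicate 3 libraries each made more calls than the main fit.

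trib3 (ENSDARG00000016200) encodes a pseudokinase that is induced by Atf4 and Chop and, in mammals, restrains them in turn. Mutant replicates 1 to 4 had 47.3, 44.0, 31.9 and 41.8 CPM, and WT replicates 1 to 4 had 60.1, 57.4, 21.5 and 42.8 CPM. The order of the libraries within each group was that of chac1, with replicate 3 lowest in both groups and WT replicates 1 and 2 highest. The means were 41.2 ± 6.65 CPM in mutants and 45.4 ± 17.7 CPM in WT (SD, n = 4 each), and the log2 fold change was -0.14 ± 0.28 (SE; 95% interval -0.78 to 0.50; edgeR adjusted p = 0.777). It was -0.37 without WT replicate 3 and 0.017 without WT replicate 1, and it was called in none of the 19 alternatives (adjusted p = 0.124 to 0.986).

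**Figure D2:**
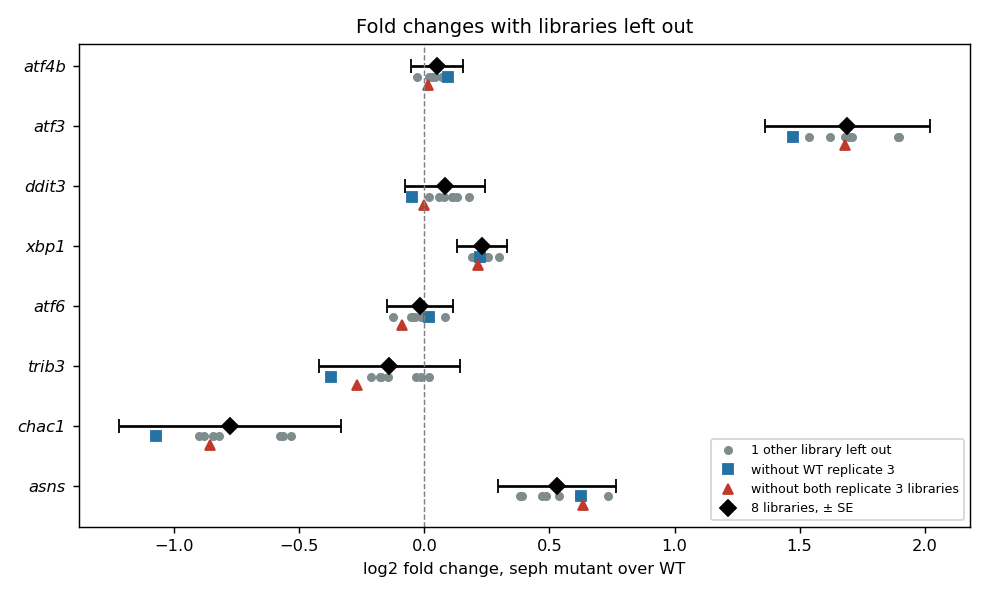
Log2 fold change of each gene, seph mutant over WT (horizontal axis), from all 8 libraries (diamonds, ± SE), with 1 library left out (circles, and squares where it is WT replicate 3) and without both replicate 3 libraries (triangles). The estimates for atf3 stay between 1.48 and 1.90, those for chac1 run from -1.07 to -0.53, and those for atf4b, ddit3, atf6 and trib3 lie on both sides of 0.

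Within groups, several of the stress genes stood apart in replicate 3, as these libraries did over all genes. Replicate 3 was the lowest library in both groups for 4 genes, atf3, ddit3, trib3 and chac1, and the highest in both groups for 2, atf4b and atf6. The share of all genes with such a pattern was not counted, so these counts do not set the stress genes apart. atf3 in replicate 3 was at 46.7% of the mean of the other 3 mutant libraries and at 44.8% of the mean of the other 3 WT libraries. For trib3 these shares were 71.8% in mutants and 40.2% in WT, and for ddit3 86.5% and 64.8%. xbp1 in replicate 3 was at 102% in mutants and 97.5% in WT, close to its group in both. asns differed from chac1 and trib3 within WT, where it was lowest in replicates 1 and 2 and chac1 and trib3 were highest there.

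**Figure D3:**
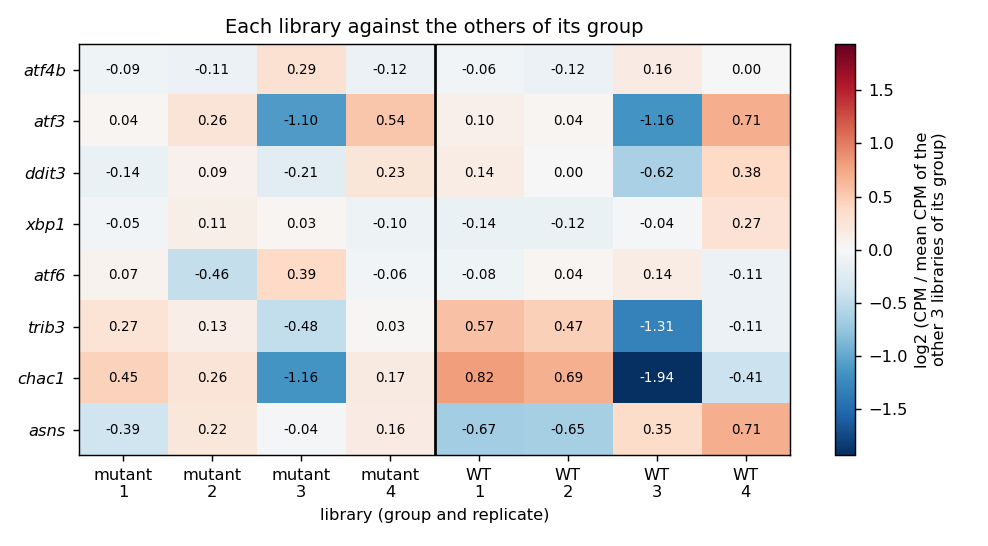
Level of each gene (rows) in each library (columns, 4 seph mutant then 4 WT), as log2 of its CPM over the mean CPM of the other 3 libraries of the same group. Blue cells in both replicate 3 columns show lower atf3, trib3 and chac1, down to -1.94 for chac1 in WT replicate 3, while asns is below its group in WT replicates 1 and 2 (-0.67 and -0.65).

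Genes whose levels varied most like those of the stress genes were sought by Pearson's r of log2 CPM over the 8 libraries. The mean of each group was subtracted first. Only genes with a symbol that is no clone name and at least 5 CPM on average were searched. This is a description, since the replicate 3 libraries shape much of it. The highest r among many genes over 8 libraries is also high through selection alone. The r without replicate 3 reuses 6 of the libraries that served to choose the genes, so it is no independent check. Since group means were subtracted, r does not describe the difference between mutants and WT. Of the genes named below, only pla2g7 (log2 fold change 0.42, edgeR adjusted p = 0.0309) and fosl2 (1.21, edgeR adjusted p = 0.0111) were called. The genes nearest to ddit3 were atf5b (r = 0.997 over 8 libraries, 0.998 over the 6 without replicate 3), which encodes a related bZIP factor, znf800b (0.991 and 0.969) and ftr82 (0.990 and 0.963). Nearest to atf3 were the cytosolic chaperone hsp90aa1 (0.996 and 0.973), pgap1 (0.993 and 0.947) and serpinh1 (ENSDARG00000019949), a collagen chaperone (0.993 and 0.957). Nearest to chac1 were ip6k2 (0.994 and 0.953), the amino acid transporter slc6a19 (0.994 and 0.959) and the anti-apoptotic gene mcl1b (0.992 and 0.989). For trib3 they were the AP-1 gene fosl2 (0.994 and 0.953), btg1 (0.993 and 0.952) and zfand5b (0.993 and 0.965), and for asns they were pla2g7 (0.990 and 0.993), the mitochondrial enzyme gene idh3b (0.988 and 0.997) and the tyrosyl-tRNA synthetase gene yars1 (0.988 for both).

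Around these genes, 6 lists of the same pathways were counted, of which the chaperones and degradation factors of the ER held the largest share of higher genes. Together the lists had 122 measured genes, of which 27 rose and 6 fell (22.1% and 4.92%, against 8.65% and 8.45% of all genes), with a median log2 fold change of 0.16, where the median of all genes was 0.0082. The 27 higher genes became 16 without WT replicate 1, 15 without WT replicate 2 and 41 without WT replicate 3. The 6 lower genes became 15 without WT replicate 3 and 3 without WT replicate 1, 2 or 4 or mutant replicate 1, 2 or 3. Without both replicate 3 libraries 45 were higher and 14 lower. The number of calls over all genes also changed when libraries were left out, as given in the closing section. Changes in these counts, here and for each list below, therefore do not set the lists apart.

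Upstream of Atf4 stand the eIF2 kinases, the eIF2 subunits and their regulators. Of 16 genes 1 rose, dnajc3b (6.25%, against 8.65% of all genes), and their median was 0.11 on the log2 scale. dnajc3b, a copy of the gene for an ER co-chaperone that also inhibits Perk, had 27.9, 23.5, 28.2 and 24.7 CPM in mutant replicates 1 to 4, above the 9.22, 10.8, 19.8 and 12.8 CPM of WT replicates 1 to 4 (log2 fold change 0.99 ± 0.22, SE; edgeR adjusted p = 0.0146). The call was lost without WT replicate 2 (edgeR adjusted p = 0.0529), 3 genes rose without WT replicate 3, and 2 rose with scaling by library size alone. Another copy, dnajc3a, was not called (log2 fold change 0.31, edgeR adjusted p = 0.0605). By edgeR 0 genes of this list fell, with 1 lower at an unadjusted p under 0.05, 0 by DESeq2 and 2 by limma-voom. The next list held 9 genes, which were sensors, membrane-bound bZIP factors, mbtps1 and mbtps2. Of these 9 genes 2 rose (22.2%, against 8.65% of all genes) and 0 fell, with a list median of -0.053. The 2 were creb3l2 (0.31 ± 0.09) and creb3l3l (0.41 ± 0.11). Both lost their calls in 6 of the 8 fits with 1 library left out, those without a replicate 1, 2 or 4 library. The sensor genes ern1 (log2 fold change 0.0059, edgeR adjusted p = 0.991), which encodes Ire1, and eif2ak3 (-0.044, edgeR adjusted p = 0.761), which encodes Perk, were looked up after the values were seen.

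Of 27 measured ER chaperone and degradation genes, many of them known in mammals as targets of Xbp1 or Atf6, 14 rose in mutants and 13 did not pass the test. That is 51.9% higher, against 8.65% of all genes. The median log2 fold change was 0.47 over the list, with a range of 0.38 to 1.72 among those called. For 13 of the 14 the groups did not overlap, where 11% of all genes had every mutant library above every WT library. Genes already called are likely to show this, so it adds no support. Entries not matched, and so not among the 27, include hspa5, pdia3, p4hb and ero1b. dnajb9 (ENSDARG00000016886), an ER co-chaperone gene that in mammals is a target of Xbp1, had 14.1, 15.4, 13.7 and 18.9 CPM in mutant replicates 1 to 4 and 5.07, 4.47, 5.48 and 7.604 CPM in WT replicates 1 to 4 (log2 fold change 1.46 ± 0.18, SE; edgeR adjusted p = 0.00113). A second dnajb9 entry (ENSDARG00000052072) was not called (0.19, edgeR adjusted p = 0.420). pdia4, a disulfide isomerase gene, had 103, 96.1, 57.4 and 110.4 CPM in mutants and 23.7, 25.4, 36.8 and 25.7 CPM in WT (1.72 ± 0.22). The mutant replicate 3 value was the lowest of its group and the WT replicate 3 value the highest of its own, so the replicate 3 values lay nearest to each other. WT replicate 3 was the highest WT library for every called gene of this list except dnajb9 (ENSDARG00000016886). For pdia6 the replicate 3 values were 58.3 CPM in the mutant and 46.7 CPM in WT. calr, also called, had 75.8 CPM in mutant replicate 3 and 77.0 CPM in WT replicate 3. The other called genes were higher in mutant replicate 3 than in WT replicate 3.

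edem1, which acts in the disposal of misfolded glycoproteins, had 41.9, 43.5, 37.5 and 45.6 CPM in mutants against 26.2, 26.3, 27.3 and 27.0 CPM in WT (0.66 ± 0.09). hsp90b1, the ER form of Hsp90, had 308, 299, 169 and 312 CPM in mutants against 89.5, 102, 116 and 112 CPM in WT (1.37 ± 0.20). dnajb9 (ENSDARG00000016886), pdia4, edem1 and hsp90b1 kept their calls with each library left out. The count of 14 became 9 without WT replicate 1 and 8 without WT replicate 2. Calls over all genes also changed in number when libraries were left out. By edgeR 0 genes of this list fell, with 1 lower at an unadjusted p under 0.05, 0 by DESeq2 and 2 by limma-voom. The same samples differed in tissue markers. Of 22 exocrine pancreas markers, genes of a cell type rich in ER, 21 fell (95.5%, against 8.45% of all genes). Their summed level was 117 to 256 CPM in mutants and 13418 to 33968 CPM in WT, although none of them was at 0 in every mutant library. Of 15 macrophage markers 5 rose (33.3%, against 8.65% of all genes), with a summed level of 1476 to 2364 CPM in mutants and 648 to 1071 CPM in WT. Most of that sum was apoeb, and without it the sum was 122 to 237 CPM in mutants and 75.4 to 111 CPM in WT. Several of the 15 are copies of mfap4, of which ENSDARG00000090557 and ENSDARG00000038681 were called higher and the rest were not called. The macrophage marker csf1rb was not called, with every mutant library below every WT library (log2 fold change -1.004, edgeR adjusted p = 0.0627). Of 9 photoreceptor markers 8 fell (88.9%, against 8.45% of all genes), with a summed level of 121 to 777 CPM in mutants and 1983 to 2731 CPM in WT. Of 12 hepatocyte markers 3 rose and 2 fell (25% and 16.7%), and of 12 neuron markers 0 rose and 2 fell (16.7%). Of 4 neutrophil markers 1 rose and 1 fell (25% each), and of 6 fast muscle markers 0 were called. In RNA from whole larvae, fewer cells of a type and less RNA per cell cannot be told apart, and the part of these tissues in the stress gene levels was not tested.

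Amino acid genes known in mammals as targets of Atf4 moved both ways. Of 30 genes 2 rose and 2 fell, 6.67% each and near the background of all genes, and the median was -0.012 on the log2 scale. mthfd1l, of mitochondrial folate metabolism, had 68.2, 96.4, 33.9 and 25.2 CPM in mutant replicates 1 to 4 against 4.54, 8.59, 12.3 and 8.88 CPM in WT replicates 1 to 4 (log2 fold change 2.70 ± 0.45, SE; edgeR adjusted p = 0.00447). phgdh, the first enzyme of serine synthesis, had 70.7, 59.3, 47.4 and 43.7 CPM in mutants against 21.1, 23.3, 37.7 and 25.8 CPM in WT (1.04 ± 0.21). Both genes rose and neither gene's groups overlapped, where 11% of all genes had every mutant library above every WT library. That separation is likely for genes already called.

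The cationic amino acid transporter slc7a3 (ENSDARG00000020645) fell, with 46.3, 48.9, 62.6 and 40.9 CPM in mutants against 101, 90.2, 80.7 and 79.7 CPM in WT (-0.82 ± 0.14). cbs (ENSDARG00000053500), a copy of cystathionine beta-synthase, fell too, with 10.3, 15.9, 8.63 and 13.1 CPM in mutants against 32.7, 30.1, 17.96 and 35.6 CPM in WT (-1.28 ± 0.24). Other copies were not called, namely slc7a3 (ENSDARG00000061566, -0.12, edgeR adjusted p = 0.767) and cbsb (0.17, edgeR adjusted p = 0.714). The 4 called genes of the list kept their calls with each library left out. Without WT replicate 3, 6 genes of the list rose and 3 fell.

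Of 17 other targets of Atf4 and Chop 4 rose and 2 fell, and their median was 0.0063 on the log2 scale. These shares were 23.5% and 11.8%, against 8.65% and 8.45% of all genes. gadd45a, a growth arrest gene that p53 also induces, had 24.4, 25.4, 24.0 and 27.3 CPM in mutant replicates 1 to 4 against 8.65, 8.18, 8.78 and 13.1 CPM in WT replicates 1 to 4 (log2 fold change 1.38 ± 0.16, SE; edgeR adjusted p = 0.000721). nupr1b, a copy of the stress-induced chromatin factor Nupr1, fell, with 35.3, 41.0, 43.8 and 46.1 CPM in mutants against 63.0, 64.4, 71.2 and 74.6 CPM in WT (-0.72 ± 0.11). Another copy, nupr1a, was not called (0.13, edgeR adjusted p = 0.721). The translation inhibitor gene eif4ebp1 rose (0.47 ± 0.11), as did the ER oxidase gene ero1a (0.56 ± 0.14), which is also in the ER list.

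eif4ebp1 and ero1a each lost the call in 5 of the 8 fits with 1 library left out (edgeR adjusted p = 0.0504 to 0.0668 and 0.0535 to 0.0674 in those fits). The other called genes were bcl2l11 (0.68), higher, and eif4ebp3 (ENSDARG00000054916, -1.49), lower, both named with their values in view, outside the rule for named genes. The count of 4 higher genes was 1 without WT replicate 1 and 2 without WT replicate 2 or 4 or mutant replicate 1, 2 or 4. The count of 2 lower genes was 1 in the same 6 fits and without mutant replicate 3, and 4 without WT replicate 3.

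Among bZIP factors that can pair with Atf3 or Atf4, or belong to the same wider family, 5 of 25 rose and 2 fell. These shares were 20% and 8%, against 8.65% and 8.45% of all genes, and the list median was 0.17 on the log2 scale. junb, an AP-1 subunit, had 97.4, 81.5, 49.97 and 87.9 CPM in mutant replicates 1 to 4 against 20.3, 24.0, 13.2 and 23.3 CPM in WT replicates 1 to 4 (log2 fold change 1.97 ± 0.24, SE; edgeR adjusted p = 0.00112). fosl2, another AP-1 subunit, had 93.6, 89.1, 64.3 and 77.0 CPM in mutants against 44.7, 42.6, 18.9 and 33.6 CPM in WT (1.21 ± 0.25). Like atf3, junb and fosl2 were lowest in replicate 3 of each group. Other genes of this list shared that pattern, among them jun, fos, cebpb and cebpd, so it does not set junb and fosl2 apart. For junb and fosl2 every mutant library lay above every WT library, as for 11% of all genes. Genes already called are likely to show such a separation.

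A copy of atf7 (ENSDARG00000011298) rose by 0.54 ± 0.09, and batf3 rose by 1.92 ± 0.49 at low levels (0.390 to 1.77 CPM in mutants, 0.170 to 0.287 CPM in WT). batf3 lost its call without mutant replicate 1 or 4 or WT replicate 1, 2 or 4. The other called genes, chosen after their values were seen, were fosl1 (2.11), higher, and creb1a (-0.32) and the second copy of atf7 (ENSDARG00000055481, -0.38), lower. The 5 higher genes became 3 without mutant replicate 1 or 4 or WT replicate 1 or 2, and 8 without WT replicate 3. The 2 lower genes became 0 without mutant replicate 1, 2 or 3 or WT replicate 1, 2 or 4 and 5 without WT replicate 3. With scaling by library size alone, 8 of these genes were higher and 0 lower.

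**Figure D4:**
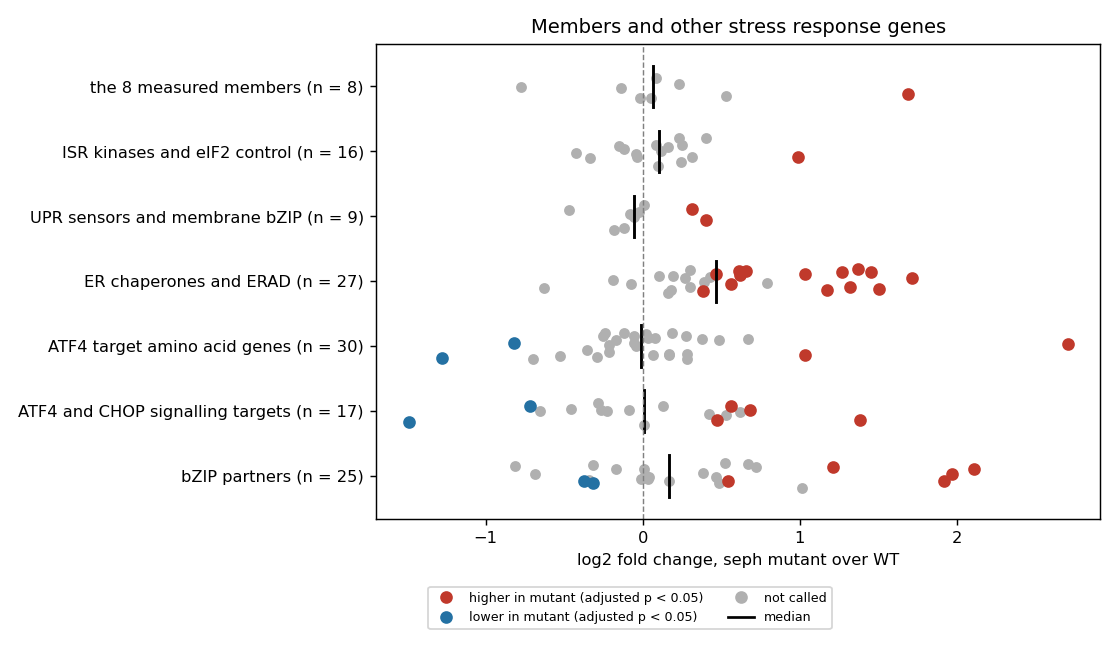
Log2 fold change, seph mutant over WT (horizontal axis), of the 8 measured genes and of the genes in 6 related lists, 1 point per gene, with red and blue points called higher and lower (edgeR adjusted p under 0.05), grey points not called, and a bar at the median. Of the ER chaperone and degradation genes, 14 of 27 are red, while 1 of the 8 measured genes, atf3, is.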

How the data were processed

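The submitters' processing notes name STAR 2.3.0e and HTSeq 0.6.0. The sources used here do not give the genome build, the annotation, the strand setting or what was done with multi-mapping reads, so overlapping and near-identical genes may share reads. The authors deposited raw read counts per Ensembl gene, 1 column per library. IDs were named from a table pairing 20769 of them with symbols. Of 233 entries in the lists, 150 matched by symbol, 21 by a RefSeq synonym, 18 without a final letter, and 44 were not matched; entries whose other name led to another gene were left unmatched. Unmatched genes are not analysed here.

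Genes were filtered with filterByExpr (minimum count 10, with 27050 kept) and normalized by TMM. They were compared by edgeR 4.0.16 (R 4.3.3, quasi-likelihood test) with genotype as the only term. This step was tested on simulated counts of independent libraries, with genes changed equally often up and down. That simulation held no replicate 3 difference and no loss of pancreas markers, so it does not check the fit for these. SEs were derived from the fold change and F statistic, and 95% intervals use the fit's degrees of freedom. Alternatives used DESeq2 1.42.0, limma-voom 3.58.1, other scalings and filters, a replicate block, and left-out libraries. WT replicates 1 and 2 were the closest pair (mean squared difference 8.11 in units of counting noise, 29.9 to 148 in other pairs within a group) and were kept as separate samples. Whether they are independent was not tested. If they are not, the spread within WT is understated. Results that rest on this pair, such as its low asns and high chac1, carry that limit.

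The members, lists and tests were chosen with earlier results of these data known. Named list genes are up to 4 called genes per list with the smallest p. The genes of like pattern are the 3 with the highest r for asns, chac1, trib3, ddit3 and atf3, among the genes searched (a symbol that is no clone name, and a mean of at least 5 CPM). No sequences are shown.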

Additional observations from a re-analysis of the deposited data

Results flagged for a closer look

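In 5 of 56 groups of 4 libraries, 1 library lay far from the other 3 relative to the range of its group; chance flags about 1 in 20 such groups. atf4b had 205 CPM in mutant replicate 3, against 166 to 169 CPM in the other mutant libraries. hsp90b1 had 169 CPM in mutant replicate 3, against 299 to 312 CPM in the others. pdia4 had 36.8 CPM in WT replicate 3, against 23.7 to 25.7 CPM. gadd45a had 13.1 CPM in WT replicate 4, against 8.18 to 8.78 CPM. selenoh had 0.358 CPM in mutant replicate 2, against 0 to 0.0181 CPM, levels at or below those of a few counts except in that library.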

How the results depend on the processing

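Among the 8 genes, the call of atf3 was kept in all 19 alternatives. Gains of a call were 4 for chac1, 2 for asns and 1 for xbp1, and the sign turned in at least 1 alternative for atf4b, ddit3, atf6 and trib3, none of which was called. ddit3 was -0.0017 without both replicate 3 libraries and -0.051 without WT replicate 3, atf4b -0.029 without mutant replicate 3, trib3 0.017 without WT replicate 1, and atf6 0.058 with library size only, 0.084 without mutant replicate 2 and 0.016 without WT replicate 3. With 1 library left out, the log2 fold changes ran up to 0.093 for atf4b and 0.18 for ddit3, and down to -0.13 for atf6 and -0.37 for trib3. The cause was not tested.

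Over all genes, limma-voom with quality weights called 5039 higher and 4765 lower, leaving out both replicate 3 libraries 4200 and 3956, and a threshold of 0.01 gave 955 and 915. For the 8 genes, limma-voom gave 3 higher and 1 lower, and leaving out both replicate 3 libraries gave 1 lower. For the 6 lists together these settings gave 47 and 17, 45 and 14, and 10 and 3. With 1 library left out, the counts ran from 1262 to 3667 higher and 1235 to 3374 lower over all genes, from 15 to 41 higher and 3 to 15 lower in the lists, and from 0 to 1 lower among the 8 genes. selenoh in mutants ran from 0.0348% to 0.724% of WT. At a depth of 51246749 counts or more, 3 counts, the limit that a count of 0 allows, correspond to at most 0.0585 CPM, which covers counting error only.

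Libraries with the same number were not taken as pairs, though part of the data would go with pairing. Their deviations from the group means correlated by 0.095, 0.066, 0.46 and 0.24 for numbers 1 to 4. Mutant replicates 1, 3 and 4 were each nearest to the WT library of the same number, and mutant replicate 2 was nearest to WT replicate 1. Whether the numbers mark shared batches is not known. With the replicate block 3783 genes were higher and 3623 lower, 2 and 1 of the 8 genes (atf3 and asns higher, chac1 lower, edgeR adjusted p = 0.0495 for asns and 0.0451 for chac1), and 45 and 14 of the list genes.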

Other observations

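chac1 and asns, both known as Atf4 targets, were set against each other within each library, a ratio chosen after their values were seen. There were 16.3, 10.8, 5.63 and 10.7 chac1 reads per asns read in mutant replicates 1 to 4, and 55.9, 52.3, 7.04 and 14.9 in WT replicates 1 to 4. WT replicates 1 and 2 stood above all other libraries, and WT replicates 3 and 4 lay within the range of the mutants.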
